A study of Mus musculus with 4 samples.

Results

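The 2 library pairs of a FAM172A RNA immunoprecipitation study in mouse brown adipose tissue were set against each other, gene by gene, in both the antibody and the control fraction. FAM172A is a protein known in mouse as a partner of the chromatin remodeller CHD7 and of Argonaute, and the study asked which RNAs it binds in brown fat during cold exposure. The first pair held an IP library (RNA recovered with the FAM172A antibody) and an IgG library (RNA recovered with control immunoglobulin) of wild-type brown fat titled cold, for which the labels give a cold protocol. The WT4 pair held 1 IP and 1 IgG library of wild-type brown fat, for which no protocol is given. The columns of the table used for the first pair name only IP and IgG, so its libraries are those titled cold by elimination alone. The labels name the genotype WT in every title and do not give strain, sex, age, temperature or time in the cold, and nothing in them says that the pairs, or the fractions of a pair, came from separate animals. The whole series is these 4 libraries, with 2 on each side.

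All levels are counts per 1000000 (CPM), the deposited estimated count of a gene scaled by its column's total. A gene was kept when it was above 0 in all 4 libraries and averaged at least 20 CPM, which left 6091 of 22481 gene symbols. The difference used throughout is the log2 level of the first pair minus that of the WT4 pair, taken once in IP and once in IgG. A gene counts as higher or lower where that difference is 2-fold or more with the same sign in IP and in IgG. Genes said below not to overlap between the pairs were mostly named for passing this line, which makes separation likely. The share of all kept genes without overlap was not counted, so non-overlap adds no support. The tables were normalized separately by the authors, the pairs may differ in anything done to them, and 2 libraries against 2 cannot give an exact two-sided permutation p below 0.333, so no difference between the pairs was tested. The intervals given are 95% counting intervals of the ratio, and they reflect counting error alone, because PCR copies cannot be recognised without molecular identifiers.

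Brown adipocytes burn fatty acids and glucose to make heat. Noradrenaline released in the cold acts on beta-adrenergic receptors and cAMP, which sets lipolysis going and raises transcription of Ucp1, whose protein lets protons return into the mitochondrial matrix without making ATP. Cold also brings de novo fatty acid synthesis and mitochondrial growth, which is why the enzymes of these programmes are commonly read as a record of thermogenic activity.

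Across the kept genes, 409 were at least 2-fold higher in the first pair in both fractions (6.71%), 879 were at least 2-fold lower (14.4%), and 289 were at least 2-fold apart in opposite ways in the fractions (4.74%). The median difference over all kept genes was -0.28 in IP and -0.24 in IgG. The balance between higher and lower differed by level. Among the 2356 genes of 20 to 50 CPM, 2.16% were higher and 21.0% lower in both fractions. The filter bears on this balance. Of the 7735 genes averaging at least 20 CPM, those at 0 in a library were left out. They numbered 496 in first IP, 261 in first IgG, 22 in WT4 IP and 1066 in WT4 IgG. Low genes could also reach 20 CPM through high WT4 values alone, as Onecut2 did (155 CPM in WT4 IgG). The same holds for Slirp, Igf1, Mrpl41 and Hsd17b11, named below as lower. Keeping genes at 0 with 1 CPM added gave 651 higher and 1344 lower over all levels. Among the 1866 genes of at least 100 CPM, 12.5% were higher, 6.7% lower and 1.66% apart in opposite ways. Of the 197 genes of at least 500 CPM, 50 were higher (25.4%), 8 lower and 1, Xrcc6, opposite. The median difference of those 197 was 0.53 in IP and 0.58 in IgG. The correlation of the IP difference with the IgG difference across genes was 0.38 over all kept genes and 0.79 over those 197, as a description of genes within 4 libraries that are not independent replicates.

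**Figure D1:**
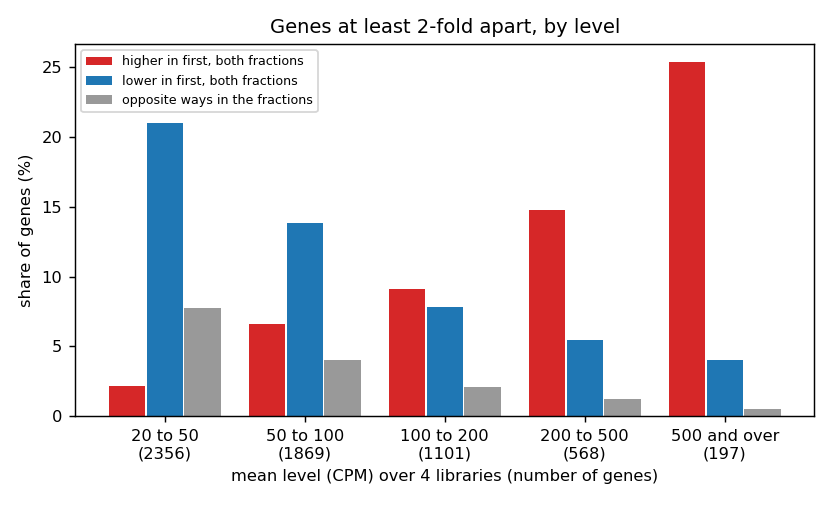
Share of kept genes (y axis, percent) that were at least 2-fold higher in the first pair in both fractions, at least 2-fold lower in both, or at least 2-fold apart in opposite ways, by mean level over the 4 libraries (x axis, CPM, number of genes in brackets). Higher genes made up 2.16% of the lowest class and 25.4% of the highest, and lower genes 21.0% and 4.06%.

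**Figure D2:**
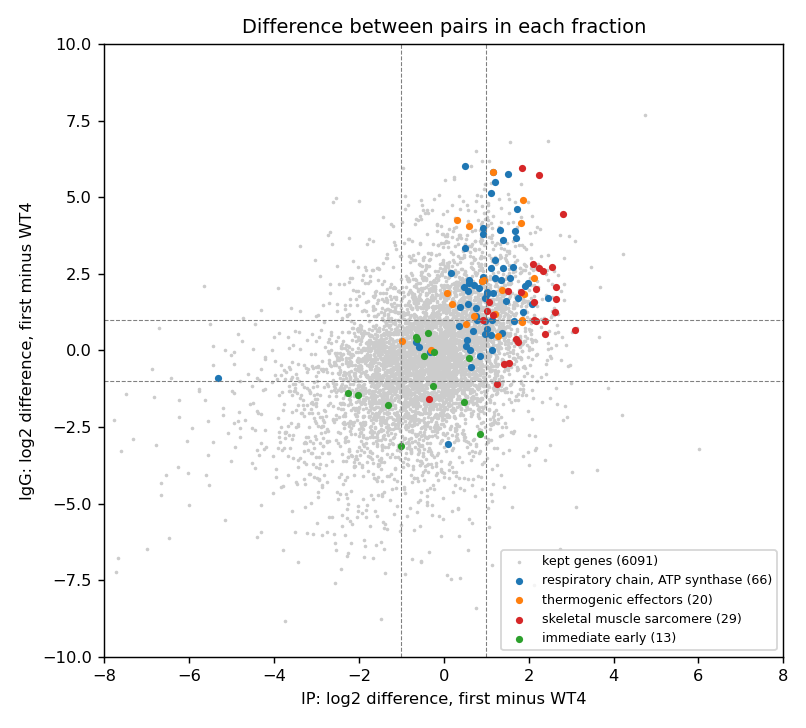
Log2 difference, first minus WT4, in IP (x axis) and in IgG (y axis) for each of the 6091 kept genes, with members of 4 lists coloured and dashed lines at 2-fold. Of the respiratory chain, thermogenic and sarcomere genes, 59 of 66, 18 of 20 and 25 of 29 lie above 0 on both axes, 4 of 13 immediate early genes lie past both lines at the lower left, and 2 genes fall outside the axes.

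The libraries differed in depth. IP gave 6633645 and IgG 5587306 fragments in the first pair, compared with 1631871 and 360379 for WT4. A level of 20 CPM rested on 133 fragments in first IP, 112 in first IgG, 32.6 in WT4 IP and 7.21 in WT4 IgG, so values of low genes in WT4 IgG are imprecise. Mitochondrially encoded genes took 9.28% and 7.07% of the first pair's IP and IgG levels and 13.7% and 9.72% of those of the WT4 pair. Of 10 brown adipocyte markers, all were detected in every library, and their summed level was 10693 and 10291 CPM in the first pair and 5715 and 3662 CPM in the WT4 pair. Ucp1 alone held more of each first-pair sum than the other markers together. Of the 10, 4 were higher in both fractions and 0 lower. Ppargc1a, Prdm16 and Adrb3 lay lower in the first pair in IP, as did Prdm16 and Ebf2 in IgG. The 8 general adipocyte markers were all detected too, at a summed 7716 and 7492 CPM in the first pair and 4578 and 2608 CPM in the WT4 pair. The tissue label thus had its defining markers in all 4 libraries, at a lower summed share in the WT4 pair. In bulk tissue, fewer cells of a type and less RNA per cell cannot be told apart.

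Transcripts with no known place in brown fat took more of the WT4 libraries. The predicted gene Gm10800 (chromosome 2, 98666547 to 98667301, minus strand, GRCm38) had 294 (IP) and 877 (IgG) CPM in the first pair, against 4056 (IP) and 18858 (IgG) CPM in the WT4 pair. Its neighbour Gm10801 (chromosome 2, 98662237 to 98664083, plus strand) stood at 15.8 (IP) and 34.5 (IgG) CPM in the first pair, against 119 (IP) and 452 (IgG) CPM in the WT4 pair. Both annotated coding transcripts are built from the same short repeats, which resemble mouse major satellite DNA, and such near-identical copies leave their counts uncertain. The first 240 bases of each are shown because the repeat is visible in them, with each copy of the word TTTTCAGTTTTC in capitals:
Gm10800: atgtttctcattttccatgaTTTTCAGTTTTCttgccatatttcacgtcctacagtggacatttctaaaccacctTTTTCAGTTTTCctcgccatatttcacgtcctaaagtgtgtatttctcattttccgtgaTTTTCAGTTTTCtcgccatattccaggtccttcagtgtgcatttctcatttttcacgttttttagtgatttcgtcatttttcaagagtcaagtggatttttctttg
Gm10801: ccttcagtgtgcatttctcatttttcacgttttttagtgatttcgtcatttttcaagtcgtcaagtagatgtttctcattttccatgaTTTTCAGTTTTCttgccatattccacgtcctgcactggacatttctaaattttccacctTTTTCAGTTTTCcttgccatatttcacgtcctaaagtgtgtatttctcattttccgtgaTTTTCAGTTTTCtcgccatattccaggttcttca
The word occurs 7 times in the 660 bases of Gm10800 and 5 times in the 504 bases of Gm10801, and 0.149% of 141767 annotated mouse transcripts hold it on either strand. The 1106 olfactory receptor genes summed to 180 and 279 CPM in the first pair and 2230 and 5500 CPM in the WT4 pair. The 325 vomeronasal receptor genes summed to 36.6 and 91.2 CPM in the first pair and 739 and 1679 CPM in the WT4 pair. These sensory receptors and Gm10800 were picked after their values had been seen. They lay higher in both WT4 libraries than in either first-pair library, and their part in the differences below was not tested.

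**Figure D3:**
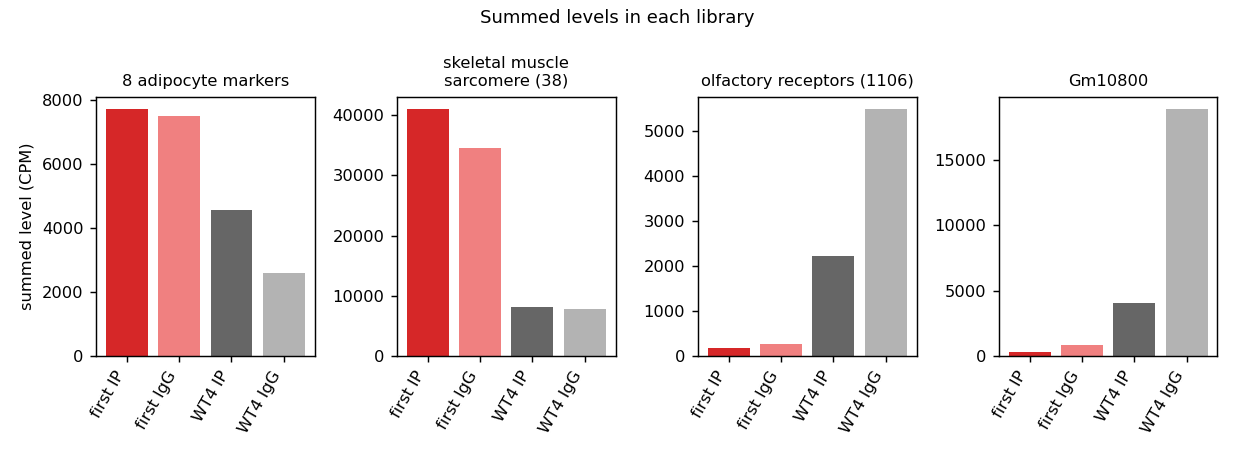
Summed level (y axis, CPM, one scale per panel) of the 8 adipocyte markers, the 38 skeletal muscle sarcomere genes, the 1106 olfactory receptor genes and Gm10800, 1 bar per library (n = 1 each, no error bar). The adipocyte and muscle bars of the first pair stand above both WT4 bars, and the olfactory receptor and Gm10800 bars stand below them.

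The counts of each gene list described next are to be read against the shares over all kept genes, 6.71% higher, 14.4% lower and 4.74% opposite, and against the higher share at the list's own level. These shares carry the limit of the filter given above. The direction of most of these groups also depends on what the libraries are scaled to. Of 33 gene lists with at least 7 kept members, 25 had medians above 0 in both fractions by column total and 27 with TMM factors. When every library was scaled to the summed level of the 8 adipocyte markers, an alternative chosen after seeing the data, 50 genes were higher and 2500 lower, and 3 of the 33 lists had both medians above 0 (thermogenic effectors, glycerolipid and triglyceride synthesis, and nuclear respiratory chain and ATP synthase) and 22 had both below. On that scale thermogenic effectors had 2 higher and 2 lower with medians of 0.31 in IP and 0.34 in IgG, de novo fatty acid synthesis had 2 higher and 1 lower, fatty acid oxidation 0 and 1, the tricarboxylic acid cycle 1 and 1, and respiratory subunits 0 and 4. The markers' own summed level was 1.69 times (IP) and 2.87 times (IgG) as high in the first pair as in the WT4 pair, and dividing by it takes that much out of every programme. The markers were Adipoq, Plin1, Fabp4, Cfd, Lipe, Pparg, Cidec and Pnpla2. Pnpla2 and Cidec also stand in the lipolysis list and Adipoq among the adipokines, so these lists were partly scaled to their own members. Scaling with TMM factors moved the median of all kept genes by 0.26 in IP and 0.74 in IgG and gave 773 genes higher and 511 lower, a higher share of 60.2% against 31.8%.

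Thermogenic genes were more often higher than lower in the first pair. Of 22 effector genes, 20 were kept, 7 were at least 2-fold higher in both fractions (35.0%, against 6.71% of all kept genes and 14.8% of those between 200 and 500 CPM, where the list's median level of 375 CPM lies), and 0 were lower. The median difference was 1.06 in IP and 1.86 in IgG, against -0.28 and -0.24 for all kept genes, and 18 of the 20 were above 0 in both fractions. With at least 20 fragments required in every library, 12 effector genes were left, 3 higher and 0 lower. Their medians were then 1.11 in IP and 1.04 in IgG, against -0.37 and -0.57 for all genes left. Ucp1 (ENSMUSG00000031710, chromosome 8, 83290352 to 83298452, plus strand), the uncoupling protein itself, had 5872 (IP) and 5749 (IgG) CPM in the first pair, against 2272 (IP) and 1462 (IgG) CPM in the WT4 pair. Both first-pair libraries lay above both WT4 libraries, with a ratio of 2.58 in IP (2.50 to 2.67) and 3.93 in IgG (3.61 to 4.29), and the log2 difference averaged 1.67 ± 0.43 (SD over the 2 fractions). Elovl3, which lengthens fatty acids and is strongly cold-inducible in brown fat, had 895 (IP) and 743 (IgG) CPM in the first pair, against 240.2 (IP) and 205 (IgG) CPM in the WT4 pair, a ratio of 3.73 in IP (3.36 to 4.14) and 3.62 in IgG (2.87 to 4.61). Its groups did not overlap, and its locus is shared with another gene in the tables, which leaves its count uncertain. Kcnk3, a potassium channel enriched in brown adipocytes, had 1189 (IP) and 823 (IgG) CPM in the first pair, against 271 (IP) and 161 (IgG) CPM in the WT4 pair, a mean log2 difference of 2.24 ± 0.16. Letmd1, a mitochondrial protein needed for brown fat thermogenesis in mice, had 589.7 (IP) and 649 (IgG) CPM in the first pair, against 166 (IP) and 36.1 (IgG) CPM in the WT4 pair. Fbxo21 rested on 1 fragment in WT4 IgG and had a ratio of 3.67 in IP (2.71 to 5.09) and 29.9 in IgG (5.33 to 1182).

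Other cold-responsive genes fell short of the 2-fold line in a fraction. Dio2, the deiodinase that makes active thyroid hormone inside brown adipocytes, had 1032 (IP) and 705 (IgG) CPM in the first pair, against 629 (IP) and 327 (IgG) CPM in the WT4 pair. All 4 values keep the pairs apart, but the log2 difference was 0.71 in IP and 1.11 in IgG. Cidea, a lipid droplet protein typical of brown fat, had 1011 (IP) and 863 (IgG) CPM in the first pair, against 284 (IP) and 438 (IgG) CPM in the WT4 pair, and its IgG difference of 0.98 lay just under the line. Pdk4, which holds back pyruvate entry, differed by 0.53 in IP and 0.87 in IgG, and the thioesterase Acot11, whose locus is shared, by 1.27 in IP and 0.47 in IgG. Gk, the glycerol kinase listed here as Gyk, had 449 (IP) and 583 (IgG) CPM in the first pair, against 363 (IP) and 30.5 (IgG) CPM in the WT4 pair, so that the WT4 IgG value of 11 fragments stood alone and the 2 IP values lay close together. Fgf21, a hormone that brown fat can release in the cold, had 0 fragments in all 4 libraries, which allows up to 0.452, 0.537, 1.84 and 8.32 CPM in first IP, first IgG, WT4 IP and WT4 IgG.

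**Figure D4:**
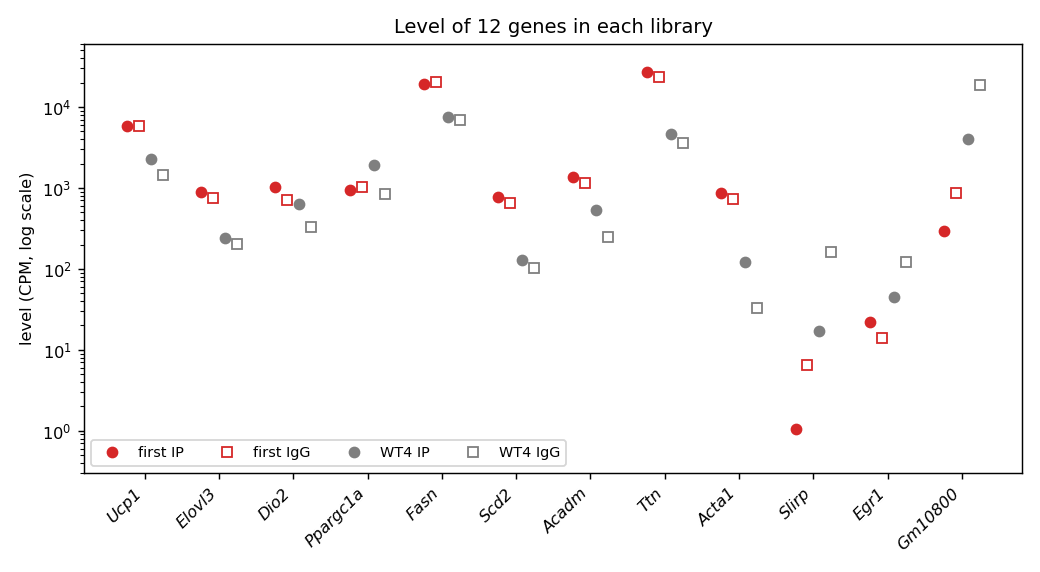
Level (y axis, CPM, log scale) of 12 genes (x axis) in each library, 1 point per library, with IP as filled circles and IgG as open squares. The first pair's points lie above both WT4 points for Ucp1, Elovl3, Dio2, Fasn, Scd2, Acadm, Ttn and Acta1 and below them for Slirp, Egr1 and Gm10800, and the pairs overlap for Ppargc1a.

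The regulators of this programme lay nearer to level between the pairs. Of 29 kept brown adipocyte transcription regulators, 2 were higher (against 9.08% of kept genes between 100 and 200 CPM, where the list's median level lies) and 0 lower, with medians of 0.01 in IP and 0.16 in IgG and 8 members above 0 in both fractions. The 2 were Esrra, a nuclear receptor that drives mitochondrial genes, and Cebpb, a cold-induced adipogenic factor, and both share a locus with another gene. Without genes that share a locus, 0 of the 20 left were higher. Ppargc1a, the coactivator that cold induces through cAMP, had 956 (IP) and 1039 (IgG) CPM in the first pair, against 1901 (IP) and 846 (IgG) CPM in the WT4 pair. The WT4 IP library was the highest and the WT4 IgG library the lowest, so the groups overlapped. Prdm16, which specifies brown fat identity, had 71.9 and 193 CPM in the first pair against 188 and 272 CPM in the WT4 pair (IP and IgG each), lower in the first pair within each fraction, although first IgG and WT4 IP overlapped. Ebf2, its partner in that role, had 121 and 83.0 CPM in the first pair against 120.1 and 239 CPM in the WT4 pair, without a common direction.

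Adrenergic and cAMP signalling was mixed. Of 23 kept members, 3 were higher (against 9.08% of kept genes at the list's level), 1 lower and 2 opposite, with medians of -0.10 in IP and 0.37 in IgG. Prkaca, the catalytic subunit of protein kinase A, had 532 (IP) and 511 (IgG) CPM in the first pair, against 145 (IP) and 164 (IgG) CPM in the WT4 pair. The regulatory subunit gene Prkar2b had 1515 (IP) and 1110.2 (IgG) CPM in the first pair, against 585 (IP) and 438 (IgG) CPM in the WT4 pair. Adcy3, an adenylyl cyclase whose locus is shared, differed by 1.06 in IP and 1.03 in IgG. Another adenylyl cyclase, Adcy9, went the other way, with 88.8 (IP) and 176 (IgG) CPM in the first pair, against 280.0 (IP) and 458 (IgG) CPM in the WT4 pair. The groups did not overlap for any of these 4 genes, which were named for passing the line. Adrb3, the main beta-adrenergic receptor of adipocytes, had 187 (IP) and 232 (IgG) CPM in the first pair, against 256 (IP) and 10.5 (IgG) CPM in the WT4 pair, where the WT4 IgG value rests on 4 fragments and the other 3 values lay close together. The transcription factor Creb1 and its coactivator Crtc2 were the 2 opposite genes, lower in IP and higher in IgG.

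In insulin and IGF signalling, 4 of 32 kept members were higher (against 9.08% of kept genes at the list's level), 1 lower and 1 opposite, with medians of -0.00028 in IP and 0.80 in IgG. Slc2a4, the insulin-responsive glucose transporter GLUT4, had 555 (IP) and 600.1 (IgG) CPM in the first pair, against 173 (IP) and 99.9 (IgG) CPM in the WT4 pair, a ratio of 3.20 in IP (2.83 to 3.62) and 6.01 in IgG (4.33 to 8.59). Pdpk1, the kinase that activates Akt, differed by 1.38 in IP and 1.44 in IgG, and Akt1 and Akt2 were the other 2. The growth factor Igf1 was lower, with 6.63 (IP) and 17.5 (IgG) CPM in the first pair, against 26.4 (IP) and 122 (IgG) CPM in the WT4 pair. Of 15 kept adipokines and batokines, 3 were higher (Vegfb, C3 and Adipoq), 2 lower (Igf1 and Lcn2) and 1, Lep, opposite. Vegfb, a vascular growth factor made by brown adipocytes, differed by 1.76 in IP and 1.98 in IgG, and Adipoq, which codes for adiponectin, had 125 and 115 CPM in the first pair against 49.6 and 52.7 CPM in the WT4 pair. Of 11 kept creatine and calcium cycling genes, 2 were higher, 1 lower and 1 opposite, and the 2 higher genes, Ryr1 and Ckm, also stand in the muscle list.

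Genes of lipid synthesis were more often higher than lower in the first pair by column total, and on the adipocyte-marker scale the IgG median of de novo fatty acid synthesis turned to -0.25. Of 21 kept genes of de novo fatty acid synthesis, 9 were higher (42.9%, against 6.71% of all kept genes and 14.8% of those at the list's level of 200 to 500 CPM) and 0 lower, with medians of 1.36 in IP and 1.27 in IgG and 19 members above 0 in both fractions. Their summed level was 69705 (IP) and 59345 (IgG) CPM in the first pair and 28277 (IP) and 25862 (IgG) CPM in the WT4 pair. Fasn (ENSMUSG00000025153, chromosome 11, 120805846 to 120824547, minus strand), fatty acid synthase, had 19474 (IP) and 20588 (IgG) CPM in the first pair, against 7582 (IP) and 6857 (IgG) CPM in the WT4 pair, a ratio of 2.57 in IP (2.52 to 2.62) and 3.0 in IgG (2.89 to 3.13). Its log2 difference averaged 1.47 ± 0.16 (SD over the 2 fractions). Scd2, a stearoyl-CoA desaturase, had 765 (IP) and 656 (IgG) CPM in the first pair, against 129 (IP) and 103 (IgG) CPM in the WT4 pair, a mean log2 difference of 2.62 ± 0.08. The groups did not overlap for either gene. Scd1, its more abundant relative, had 29300.2 (IP) and 17938 (IgG) CPM in the first pair, against 9938 (IP) and 9798 (IgG) CPM in the WT4 pair, which kept the pairs apart with an IgG difference under the line at 0.87. Acly, which makes cytosolic acetyl-CoA from citrate, differed by 1.72 in IP and 1.74 in IgG. Me1 and G6pdx, which supply NADPH, differed by 2.03 in IP and 3.82 in IgG for Me1 and by 1.95 in IP and 1.80 in IgG for G6pdx, and both share a locus with another gene. The remaining 4 were Pgd, Acaca, Acsl1 and Tkt.

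Glycerolipid and triglyceride synthesis showed the same direction in 12 of 15 kept members, with 7 higher (46.7%, against 6.71% of all kept genes and 25.4% of those of at least 500 CPM, where the list's median level lies), 0 lower and medians of 1.25 in IP and 1.58 in IgG. Gpd1, which turns a glycolytic intermediate into glycerol 3-phosphate, had 11614 (IP) and 11634 (IgG) CPM in the first pair, against 4090.4 (IP) and 3882 (IgG) CPM in the WT4 pair. Its mitochondrial counterpart Gpd2 had 1481 (IP) and 1159.8 (IgG) CPM in the first pair, against 503 (IP) and 222 (IgG) CPM in the WT4 pair, and the acyltransferases Lclat1 and Agpat3 differed by 2.18 in IP and 2.66 in IgG for Lclat1 and by 1.54 in IP and 2.65 in IgG for Agpat3. Of 20 kept lipolysis and lipid droplet genes, 4 were higher (against 14.8% of kept genes at the list's level) and 1 lower, with medians of 0.53 in IP and 1.09 in IgG. Pnpla2, the adipose triglyceride lipase, had 1915 (IP) and 1769 (IgG) CPM in the first pair, against 682 (IP) and 677 (IgG) CPM in the WT4 pair, a ratio of 2.81 in IP (2.64 to 2.99) and 2.61 in IgG (2.30 to 2.98). Its coactivator Abhd5 differed by 1.41 in IP and 2.15 in IgG. Fitm2, which shapes lipid droplets and shares a locus, differed by 1.51 in IP and 2.19 in IgG, and the fourth was the droplet protein Cidec. Hsd17b11 was lower, with 6.48 and 18.3 CPM in the first pair against 19.6 and 88.8 CPM in the WT4 pair.

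Of 22 kept genes of lipoprotein hydrolysis and fatty acid uptake, 4 were higher (18.2%, against 9.08% of kept genes at the list's level), 0 lower and 1, Acsl4, opposite, with medians of 0.70 in IP and 1.19 in IgG. Lpl, the lipase that frees fatty acids from lipoproteins, had 5231 (IP) and 4154 (IgG) CPM in the first pair, against 2523 (IP) and 3594 (IgG) CPM in the WT4 pair, which is 2-fold in IP alone. Acsl1 and Acsl5 activate fatty acids, and Acsl5, whose locus is shared, had 1099 and 761 CPM in the first pair against 356 and 41.6 CPM in the WT4 pair. Sort1, a sorting receptor that handles Lpl, differed by 1.37 in IP and 1.36 in IgG. Fabp3, a fatty acid carrier of heart and muscle that brown fat also makes, rested on 1 fragment in WT4 IgG, shares its locus, and had a ratio of 2.93 in IP (2.53 to 3.4) and 112 in IgG (20.1 to 4430.2). Of 14 kept genes of sterol synthesis and the LDL receptor, 2 were higher (Sc5d and Pmvk) and 0 lower. Of 25 kept peroxisomal genes, 2 were higher (Decr2 and Pex13), 2 lower, Pex3 among them, and 1 opposite.

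Genes of mitochondrial fuel oxidation were more often higher than lower in the first pair by column total, and on the adipocyte-marker scale the IgG medians turned to -0.19 for fatty acid oxidation and -0.12 for the tricarboxylic acid cycle. Of 24 kept genes of mitochondrial fatty acid oxidation, 12 were higher (against 6.71% of all kept genes and 14.8% of those at the list's level of 200 to 500 CPM), 0 lower and 1, the carnitine transporter gene Slc22a5, opposite, with medians of 1.17 in IP and 1.33 in IgG. Acadm, the medium-chain acyl-CoA dehydrogenase, had 1376 (IP) and 1145 (IgG) CPM in the first pair, against 532 (IP) and 244 (IgG) CPM in the WT4 pair, a ratio of 2.59 in IP (2.41 to 2.78) and 4.69 in IgG (3.8 to 5.86). Hadh, a later enzyme of the same spiral, had 715 (IP) and 615 (IgG) CPM in the first pair, against 281 (IP) and 74.9 (IgG) CPM in the WT4 pair. Echs1 and Decr1 differed by 1.51 in IP and 2.40 in IgG for Echs1 and by 1.43 in IP and 1.83 in IgG for Decr1. The groups did not overlap for any of these 4.

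In the tricarboxylic acid cycle and pyruvate entry, 9 of 27 kept genes were higher (33.3%, against 6.71% of all kept genes and 14.8% at the list's level) and 0 lower, with medians of 1.05 in IP and 1.40 in IgG. Mpc1, a subunit of the mitochondrial pyruvate carrier, had 325 (IP) and 216 (IgG) CPM in the first pair, against 69.2 (IP) and 30.5 (IgG) CPM in the WT4 pair, with a shared locus. Mdh2, malate dehydrogenase, had 448 (IP) and 609.8 (IgG) CPM in the first pair, against 164 (IP) and 74.9 (IgG) CPM in the WT4 pair. Sucla2, a subunit of succinyl-CoA synthetase that shares a locus with another gene, differed by 1.45 in IP and 2.12 in IgG, and citrate synthase (Cs) had 1003 and 1061 CPM in the first pair against 379 and 172 CPM in the WT4 pair.

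Respiratory chain and ATP synthase subunits encoded in the nucleus formed the largest of these lists, with 66 of 81 members kept. Of the 66, 27 were higher (40.9%, against 6.71% of all kept genes and 9.08% of those at the list's level of 100 to 200 CPM) and 0 lower, 59 were above 0 in both fractions, and the medians were 1.0 in IP and 1.87 in IgG. Members of complex I (such as Ndufa4 and Ndufb8), complex II (Sdha, Sdhb, Sdhc and Sdhd), complex III (Uqcrh), complex IV (Cox5b and others) and ATP synthase (Atp5b, Atp5o) were among the 27. Ndufa4 had 116 (IP) and 114 (IgG) CPM in the first pair, against 29.4 (IP) and 25 (IgG) CPM in the WT4 pair. Cox5b, whose locus is shared, had 229 (IP) and 246 (IgG) CPM in the first pair, against 68.0 (IP) and 74.9 (IgG) CPM in the WT4 pair, and Sdha had 1205 and 998 CPM in the first pair against 523 and 128 CPM in the WT4 pair. The WT4 IgG values of this list rested on few fragments: Ndufa4 had 9 and Atp5o had 3, and the Atp5o ratio was 3.32 in IP (2.69 to 4.14) and 24.3 in IgG (8.29 to 118). With at least 20 fragments required in every library, 33 members were left, 11 higher and 0 lower, with medians of 0.98 in IP and 1.01 in IgG.

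Mitochondrially encoded genes did not follow 1 direction. Of 11 kept, 5 were higher and 2 lower, and their summed level was 92792 (IP) and 70681 (IgG) CPM in the first pair and 136792 (IP) and 97192 (IgG) CPM in the WT4 pair. All 7 share a locus with another gene in the tables, so the split of reads among them is uncertain. mt-Cytb, a subunit of complex III, had 14253 (IP) and 11109 (IgG) CPM in the first pair, against 3414 (IP) and 3402 (IgG) CPM in the WT4 pair. mt-Atp6, a subunit of ATP synthase, had 10089.9 (IP) and 426 (IgG) CPM in the first pair, against 374 (IP) and 2.09 (IgG) CPM in the WT4 pair, and its fragment counts of 66933, 2381, 611 and 1 (first IP, first IgG, WT4 IP, WT4 IgG) differed between the fractions of each pair as well. mt-Nd5, a complex I subunit, was lower, with 12463 (IP) and 11216 (IgG) CPM in the first pair, against 53408 (IP) and 46904 (IgG) CPM in the WT4 pair. mt-Nd6, encoded on the opposite strand beside it, was lower too, with 555 (IP) and 183 (IgG) CPM in the first pair, against 11088 (IP) and 6063 (IgG) CPM in the WT4 pair. The WT4 values of these 2 genes lay above both first-pair values.

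Other mitochondrial lists were less one-sided. Of 25 kept solute carriers of the SLC25 family, 7 were higher (against 9.08% of kept genes at the list's level), 1 lower and 3 opposite, with medians of 1.07 in IP and 0.85 in IgG. Slc25a39, a mitochondrial glutathione carrier, had 608 (IP) and 447 (IgG) CPM in the first pair, against 112 (IP) and 72.1 (IgG) CPM in the WT4 pair. Slc25a51, the NAD carrier, had 1227 (IP) and 987 (IgG) CPM in the first pair, against 358 (IP) and 299.7 (IgG) CPM in the WT4 pair, and the ADP/ATP carrier Slc25a4 differed by 1.43 in IP and 3.31 in IgG. Slc25a44, which brings branched-chain amino acids into mitochondria, differed by 1.39 in IP and 1.81 in IgG. It is also counted among 17 kept genes of branched-chain amino acid breakdown, of which 4 were higher and 0 lower. With at least 20 fragments required in every library, 5 genes of that pathway were left and 0 were higher. This rule leaves out genes low in WT4 IgG, the library with the fewest fragments, and so works against higher genes. Under it the IgG median of all genes left was -0.57, against -0.24 for all kept genes. Bckdk, the kinase that restrains branched-chain amino acid breakdown, was another of the 4 higher genes. It had 57.0 and 83.2 CPM in the first pair against 17.2 and 25 CPM in the WT4 pair. Of 26 kept genes of mitochondrial dynamics and genome expression, 4 were higher (Phb, Mfn2, Chchd3 and Letm1), 1 lower and 1, Nrf1, opposite. Phb, a prohibitin of the inner membrane, differed by 2.25 in IP and 2.67 in IgG, and the fusion gene Mfn2 by 1.13 in IP and 1.67 in IgG. The lower gene was Slirp, which stabilises mitochondrial mRNAs and shares its locus, with 1.06 (IP) and 6.44 (IgG) CPM in the first pair, against 17.2 (IP) and 161 (IgG) CPM in the WT4 pair. Mitochondrial ribosomal proteins had 5 higher, 4 lower and 2 opposite of 33 kept, with medians of 0.51 in IP and 0.12 in IgG. Mrpl12 had 244 and 167 CPM in the first pair against 39.8 and 52.7 CPM in the WT4 pair, while Mrpl41 had 4.37 and 19.3 CPM in the first pair against 31.3 and 139 CPM in the WT4 pair.

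Genes of glucose use were more often higher by column total, and on the adipocyte-marker scale their medians fell below 0 in both fractions. Of 18 kept genes of glycolysis and glucose uptake, 6 were higher (33.3%, against 6.71% of all kept genes and 14.8% at the list's level) and 0 lower, with medians of 0.70 in IP and 1.48 in IgG. Eno1, an enolase, had 1481 (IP) and 1214 (IgG) CPM in the first pair, against 533 (IP) and 388 (IgG) CPM in the WT4 pair. Pgam1 and Tpi1, further glycolytic enzymes, differed by 1.87 in IP and 1.63 in IgG for Pgam1 and by 1.25 in IP and 1.37 in IgG for Tpi1, the second with a shared locus. Slc2a4 is the transporter of this list, and Aldoa and Ldha were the last 2. Ketone body metabolism had 3 kept genes, all above 0 in both fractions and 0 of them past the line. They included Aacs, which turns acetoacetate into acetoacetyl-CoA for lipid synthesis, and the monocarboxylate transporter Slc16a1. Aacs had 389 and 337 CPM in the first pair against 224 and 155 CPM in the WT4 pair. Slc16a1 had 331 and 254 CPM in the first pair against 132 and 136 CPM in the WT4 pair. Bdh1, the mitochondrial enzyme named in the study's title that interconverts ketone bodies, was not kept, with 27, 0, 31 and 0 fragments in first IP, first IgG, WT4 IP and WT4 IgG. Its IP ratio was 0.214 (0.123 to 0.371), and both IgG libraries were at 0.

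**Figure D5:**
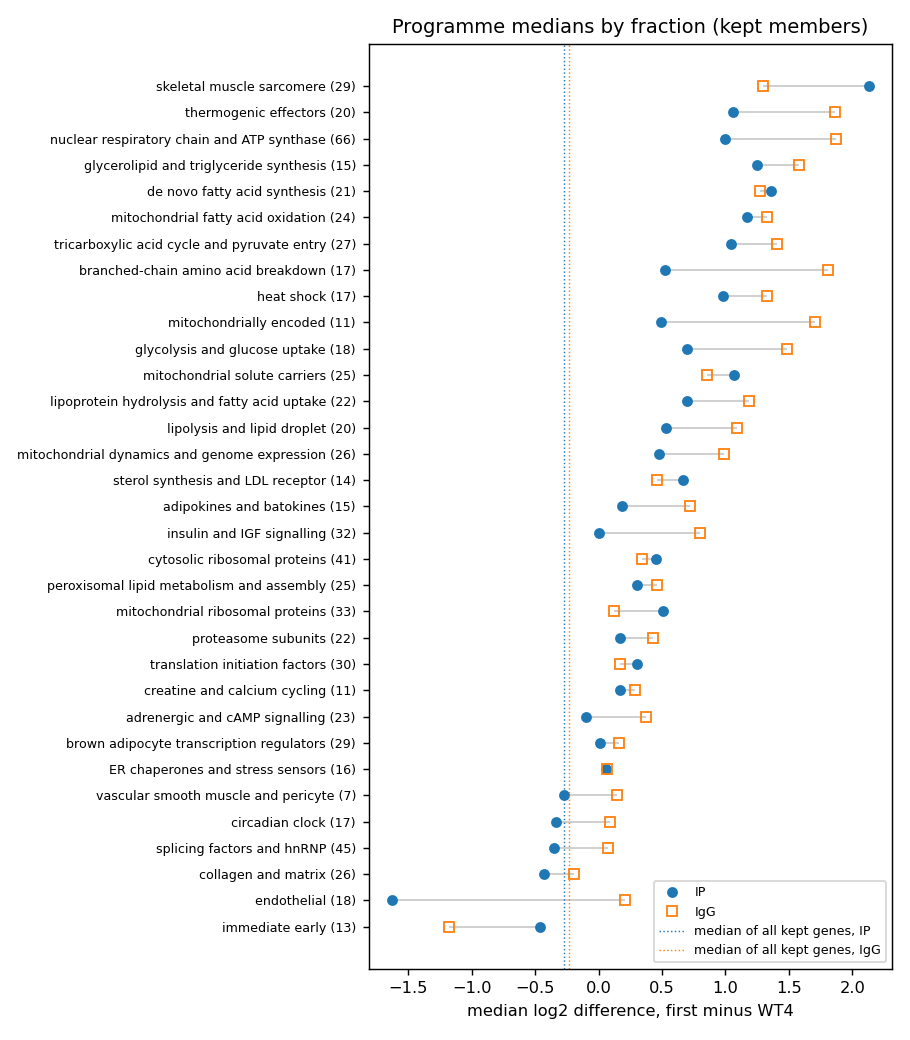
Median log2 difference, first minus WT4 (x axis), of the kept members of 33 gene lists (y axis, number kept in brackets), in IP (filled circles) and IgG (open squares), with dotted lines at the medians of all kept genes, -0.28 in IP and -0.24 in IgG. By column total most metabolic lists lie to the right of 0 in both fractions, immediate early genes to the left in both, and endothelial genes at -1.63 in IP and 0.21 in IgG.

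Skeletal muscle genes were more often higher than lower in the first pair by column total. Of 29 kept sarcomere genes, 18 were higher (62.1%, against 6.71% of all kept genes and 9.08% at the list's level), 0 lower and 1, Casq1, opposite, with medians of 2.13 in IP and 1.30 in IgG. All 38 listed genes together summed to 41043 (IP) and 34526 (IgG) CPM in the first pair and 8171 (IP) and 7800.1 (IgG) CPM in the WT4 pair, a ratio of 5.02 in IP and 4.43 in IgG. Ttn alone, given below, held more of each first-pair sum than all other listed genes together, so these ratios lean on 1 gene. Of the 10 defining muscle markers, all were detected in 3 libraries and 9 in WT4 IgG, where Tnnc2 was at 0, and they summed to 6308 and 4200 CPM in the first pair and 1560 and 2020 CPM in the WT4 pair. Of the 8 markers kept, 4 were higher in both fractions and 0 lower. In IgG, Tnni2 (56.7 against 77.7 CPM) and Pvalb (29.5 against 38.8 CPM) lay lower in the first pair. Ttn (ENSMUSG00000051747, chromosome 2, 76703980 to 76982547, minus strand), the giant spring protein of the sarcomere, had 26960.2 (IP) and 23648 (IgG) CPM in the first pair, against 4584 (IP) and 3563 (IgG) CPM in the WT4 pair, a ratio of 5.88 in IP (5.75 to 6.02) and 6.64 in IgG (6.28 to 7.02). Acta1, skeletal muscle actin, had 868 (IP) and 725 (IgG) CPM in the first pair, against 123 (IP) and 33.3 (IgG) CPM in the WT4 pair, with a shared locus. Myh1 and Myh7, heavy chains of fast and slow myosin, differed by 2.34 in IP and 2.60 in IgG for Myh1 and by 2.25 in IP and 2.69 in IgG for Myh7. Myh7 shares a locus as well. No value of the first pair overlapped the WT4 pair for these 4 genes. On the adipocyte-marker scale 7 muscle genes were higher and 1 lower, and the IgG median turned to -0.23. Several metabolic genes named above, such as Slc2a4, Fabp3, Ckm and Aldoa, are also expressed in muscle, and the part of muscle RNA in their differences was not tested.

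Endothelial genes lay lower in IP and had no common direction in IgG. Of 18 kept, 0 were higher, 2 lower and 2 opposite (Robo4 and Tek), with medians of -1.63 in IP and 0.21 in IgG (-2.38 and -1.32 on the adipocyte-marker scale) and a summed level of 1894 (IP) and 4655 (IgG) CPM in the first pair and 5307 (IP) and 4526 (IgG) CPM in the WT4 pair. Mmrn2 and Tie1, an endothelial matrix protein and a receptor of vessel growth, were the lower genes, with differences of -1.70 in IP and -1.32 in IgG for Mmrn2 and -1.38 in IP and -1.11 in IgG for Tie1. Kdr, the main VEGF receptor, had 299 and 755 CPM in the first pair against 826 and 766 CPM in the WT4 pair, with the first IP library the lowest of the 4. Of 26 kept collagen and matrix genes, 0 were higher, 1, Col27a1, was opposite and 1 was lower, Lamb2, which codes for a basement membrane laminin, with 45.7 (IP) and 103 (IgG) CPM in the first pair, against 208 (IP) and 516 (IgG) CPM in the WT4 pair. Fibroblast genes had 2 of 15 kept, Col1a2 and Col3a1, and neither passed the line. Of 7 kept vascular smooth muscle and pericyte genes, 0 were higher or lower and 1, Notch3, was opposite, and Rgs5 and Pdgfrb, its most abundant members, had 299.8 and 622 CPM in the first pair against 365 and 178 CPM in the WT4 pair and 135 and 163 CPM in the first pair against 202 and 427 CPM in the WT4 pair.

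Blood and nerve cell lists were close to the detection limit. Of 10 defining macrophage markers, 6 (IP) and 7 (IgG) were detected in the first pair, against 10 (IP) and 3 (IgG) for WT4, and their summed level was 92.4 and 63.7 CPM in the first pair and 76.7 and 161 CPM in the WT4 pair. The macrophage gene Emr1 (Adgre1) was lower, with 0.603 and 15.4 CPM in the first pair against 6.13 and 63.8 CPM in the WT4 pair. It averaged 20 CPM only through its WT4 IgG value. Itgam and Mrc1 also lay lower in the first pair in both fractions. Lyz2, C1qb and C1qc lay higher in both, but were not kept because they were at 0 in WT4 IgG. The lymphocyte list had 1 kept gene, Ptprc, with 17.3 and 3.94 CPM in the first pair against 25.7 and 208 CPM in the WT4 pair, the erythroid list 1, Fech, which differed by 0.24 in IP and 5.6 in IgG with 1 fragment in WT4 IgG, and the Schwann cell and neuron list 3, of which Nefm was lower (-5.61 in IP and -4.06 in IgG) and Scn7a opposite. Nefm shares its locus with another gene. Of 4 kept proliferation genes, Mki67 was lower, with 48.2 and 15.0 CPM in the first pair against 98.0 and 139 CPM in the WT4 pair.

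Immediate early genes, which respond to stimuli within minutes, had 0 higher and 4 lower of 13 kept, against 6.71% higher and 14.4% lower of all kept genes, with medians of -0.46 in IP and -1.18 in IgG. With TMM factors 1 was lower and 1 opposite, and on the adipocyte-marker scale 8 were lower. Without genes that share a locus, 3 of the 11 left were lower and the IgG median was -0.24. Egr1 had 22.3 (IP) and 14.1 (IgG) CPM in the first pair, against 44.7 (IP) and 122 (IgG) CPM in the WT4 pair. Btg2 had 8.14 (IP) and 34.0 (IgG) CPM in the first pair, against 39.2 (IP) and 88.8 (IgG) CPM in the WT4 pair, and Cyr61, which shares a locus, differed by -2.02 in IP and -1.46 in IgG. Klf4 was the most abundant of the 4, with 58.0 (IP) and 137 (IgG) CPM in the first pair, against 143 (IP) and 466 (IgG) CPM in the WT4 pair. Both WT4 values lay above both first-pair values for Egr1, Btg2 and Klf4, and the pairs overlapped slightly for Cyr61, at 8.29 and 34.4 CPM in the first pair against 33.7 and 94.3 CPM in the WT4 pair. The list's median level of 49.8 CPM lies where 21.0% of kept genes were lower.

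Few clock and RNA-processing genes passed the line. Of 17 kept clock genes, 2 were lower, 0 higher and 1, Per2, opposite, with medians of -0.33 in IP and 0.09 in IgG. Per1, a light- and cAMP-responsive clock gene, had 126 (IP) and 143 (IgG) CPM in the first pair, against 284 (IP) and 336 (IgG) CPM in the WT4 pair. Gm129 (Ciart), a repressor of the clock, differed by -3.50 in IP and -1.34 in IgG and shares its locus. Of 45 kept splicing factor and hnRNP genes, 0 were higher, 4 lower and 2 opposite (Ddx17 and U2af2), with medians of -0.35 in IP and 0.08 in IgG. Neither list had a larger share of lower genes than the 14.4% of all kept genes. At the lists' own levels, 13.9% of kept genes were lower for clock genes (50 to 100 CPM) and 7.81% for splicing genes (100 to 200 CPM). The share of lower splicing genes lay slightly above the second value, and 9.08% of kept genes were higher at that level. Hnrnpdl had 91.5 (IP) and 128 (IgG) CPM in the first pair, against 254 (IP) and 422 (IgG) CPM in the WT4 pair. Tra2b, a splicing regulator, differed by -1.32 in IP and -1.16 in IgG, and Hnrnpll by -1.43 in IP and -2.79 in IgG. Chd7, the remodeller that binds FAM172A, had 175 (IP) and 238 (IgG) CPM in the first pair, against 381 (IP) and 488 (IgG) CPM in the WT4 pair. Fam172a (ENSMUSG00000064138, chromosome 13, 77702033 to 78166235, plus strand) itself had 21.2 (IP) and 24.2 (IgG) CPM in the first pair, against 60.6 (IP) and 66.6 (IgG) CPM in the WT4 pair, with a log2 difference of -1.51 in IP and -1.46 in IgG, and it shares a locus with another gene.

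Heat shock genes were higher in 6 of 17 kept members (35.3%, against 6.71% of all kept genes and 9.08% at the list's level) and lower in 0, with medians of 0.98 in IP and 1.33 in IgG. On the adipocyte-marker scale 0 were higher and 1 lower, and the IgG median turned to -0.20. Hspa9, the mitochondrial Hsp70 chaperone, had 1615 (IP) and 1316 (IgG) CPM in the first pair, against 526 (IP) and 225 (IgG) CPM in the WT4 pair. Hsp90aa1, a cytosolic chaperone, had 941 (IP) and 538 (IgG) CPM in the first pair, against 245 (IP) and 178 (IgG) CPM in the WT4 pair, and the small heat shock genes Hspb6 and Hspb1 differed by 2.41 in IP and 1.80 in IgG for Hspb6 and by 1.37 in IP and 1.27 in IgG for Hspb1. Chaperones and stress sensors of the endoplasmic reticulum had 1 higher, Manf, and 0 lower of 16 kept, with medians of 0.06 in IP and 0.06 in IgG. Proteasome subunits had 1 higher (Psme3) and 2 lower (Psmb8 and Psme2) of 22 kept. Cytosolic ribosomal proteins had 5 higher and 2 lower (Rpl12 and Rpl36al) of 41 kept, led by Rplp0 with 304 and 216 CPM in the first pair against 63.1 and 13.9 CPM in the WT4 pair. These genes have many near-identical pseudogenes, which leaves their counts uncertain. Translation initiation factors had 3 higher (Eif4g2, Eif4e and Eif3b), 1 lower (Eif2b3) and 1 opposite (Eif3i) of 30 kept, and Eif4g2 had 1002 and 718 CPM in the first pair against 370.1 and 280.3 CPM in the WT4 pair.

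Among single genes, the widest differences upward were those of mt-Atp6, Fabp3-ps1, AA474408, Reep5, Abhd12, Acta1, Mob1b, Eef1a2, Fth1 and Scd2, ranked by the smaller of the 2 differences. Fth1, the heavy chain of ferritin, had 1479 (IP) and 1197 (IgG) CPM in the first pair, against 246 (IP) and 197 (IgG) CPM in the WT4 pair, a ratio of 6.02 in IP (5.45 to 6.67) and 6.08 in IgG (4.81 to 7.79). Reep5, which shapes tubules of the endoplasmic reticulum, had 335 (IP) and 224 (IgG) CPM in the first pair, against 43.5 (IP) and 16.6 (IgG) CPM in the WT4 pair. Eef1a2, the elongation factor isoform of muscle and neurons, had 87.7 (IP) and 92.2 (IgG) CPM in the first pair, against 7.97 (IP) and 13.9 (IgG) CPM in the WT4 pair. Fabp3-ps1 is a pseudogene of Fabp3, so reads of the 2 genes may be confused. Among genes of at least 500 CPM, Sod2, the mitochondrial superoxide dismutase, came next in rank after Ttn, with 1351 (IP) and 713 (IgG) CPM in the first pair, against 232 (IP) and 158 (IgG) CPM in the WT4 pair.

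The widest differences downward were those of Lrtm1, Abat, Fmn1, F5, Frmd8, E430018J23Rik, Mis18a, Pax6, Gpank1 and Onecut2. Of these, Lrtm1, F5, Frmd8, E430018J23Rik, Mis18a, Pax6 and Gpank1 share a locus with another gene. All 10 were low in the first pair, with 1 to 14 fragments in first IP. They averaged 20 CPM only through their WT4 values, so the filter itself favours such genes at this end of the ranking. Fmn1, which nucleates actin filaments, had 0.452 (IP) and 1.79 (IgG) CPM in the first pair, against 57.6 (IP) and 158 (IgG) CPM in the WT4 pair. Pax6, a transcription factor of eye, brain and pancreas, had 2.11 (IP) and 2.33 (IgG) CPM in the first pair, against 44.7 (IP) and 158 (IgG) CPM in the WT4 pair, with a shared locus. Abat, the GABA transaminase, had 0.151 (IP) and 0.537 (IgG) CPM in the first pair, against 30.6 (IP) and 58.3 (IgG) CPM in the WT4 pair. Onecut2, a transcription factor of liver and neurons, had 0.151 and 7.70 CPM in the first pair against 15.3 and 155 CPM in the WT4 pair. The 8 lower genes of at least 500 CPM were mt-Nd6, Gm10800, mt-Nd5, Syne2, Shank3, Myo10, Sfrs18 and Etl4, a list read off after the values were seen. Syne2, a giant protein of the nuclear envelope, had 558 (IP) and 665 (IgG) CPM in the first pair, against 1706 (IP) and 2459 (IgG) CPM in the WT4 pair, and Shank3, a scaffold of synapses, had 141 (IP) and 594 (IgG) CPM in the first pair, against 1057 (IP) and 1634 (IgG) CPM in the WT4 pair.

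Higher and lower genes differed in length. The median annotated exonic length was 3976 bases for the 409 higher genes and 6382 for the 879 lower genes, against 5830.5 for all kept genes. In the fifth of kept genes with the shortest exons, 168 were higher and 132 lower, and in the fifth with the longest, 40 were higher and 218 lower. The median difference in those 2 groups was 0.37 and -0.61 in IP and 0.08 and -0.31 in IgG. Ttn, the gene with the longest known coding sequence, was among the higher genes, a single case that says nothing about the trend. The part of length in the list counts was not tested.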

How the data were processed

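For each pair, 1 table with an IP and an IgG library was deposited. The authors deposited the estimated counts already scaled within each pair, and each column moved in a step of its own (0.926 and 1.09 for IP and IgG of the first pair, 0.731 and 2.71 for those of WT4). Division by the step gave fragments, whole to within 0.05 for 94.4% to 98.0% of nonzero values. The authors deposited FPKM beside them, used here only as an alternative. The tools were Cuffdiff, Cufflinks, HISAT2 and cutadapt 1.9.3 on the mm10 build, per the submitters' processing notes, which state neither role nor order. The annotation release and the counting of strands are not given in the sources used here, although the library kit named in the labels' protocols is directional.

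Each column was rescaled to 1000000, and rows were summed by gene symbol (22564 rows, 22481 symbols). A value under 0.5 of a fragment counted as 0, which left out 108 genes with near-zero estimates. Of the kept genes, 30.4% share a locus interval with another gene, and such counts, like those of near-identical copies, are uncertain. Not every gene that shares a locus is marked where it is named. Log2 differences were taken within a fraction, between tables that the authors normalized separately, and no test was run. Ratios carry exact conditional binomial intervals (95%), and a gene at 0 was given the upper limit of 3 fragments. Coordinates are 1-based from GENCODE vM21 (GRCm38, the assembly behind mm10), looked up by Ensembl gene identifier, and transcript sequences come from the same release. Of the listed symbols, 12 were matched to older names.

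The members, the 40 gene lists and the rules were chosen with earlier results of these data known. The genes named are the 10 highest and 10 lowest by the smaller of the 2 differences, up to 4 members of each list past the line in the same way (or its 2 most abundant), and a fixed group of brown fat genes with Fam172a and Bdh1, and other names were added after their values were seen. A list's counts are read against the share of all kept genes past the line. Alternatives were other scalings, level filters, treatments of 0 and fold lines, and each fraction alone. The procedure was tested on simulated data with counting error alone and changes larger than 2-fold. That test left out the lowest genes kept here and any variation between libraries or tables, so it does not cover them. Python 3.11.15, pandas 2.3.3, numpy 2.4.6 and scipy 1.17.1 were used, with edgeR 4.0.16 (R 4.3.3) for TMM factors alone. A few genes are not reported here by name.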

Additional observations from a re-analysis of the deposited data

Results flagged for a closer look

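The median log2 difference of endothelial genes, first minus WT4, lay on opposite sides of 0 in the fractions, at -1.63 in IP and 0.21 in IgG over 18 kept genes. Of these, 2 were at least 2-fold apart in opposite ways and 9 were below 0 in both fractions, and on the adipocyte-marker scale the medians were -2.38 in IP and -1.32 in IgG. Their summed level was 1894 (IP) and 4655 (IgG) CPM in the first pair and 5307 (IP) and 4526 (IgG) CPM in the WT4 pair, so the first IP library stood below the other 3. The difference between the fractions was not tested, with 1 library in each cell of the design.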

How the results depend on the processing

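The counts of genes at least 2-fold apart moved with scaling and filters. With TMM factors 773 genes were higher and 511 lower (60.2% of those past the line were higher, against 31.8%), with the medians centred 626 were higher (48.1%), with median-of-ratios size factors 660 were higher (50.5%), and with FPKM 478 were higher (45.1%) and 583 lower. With a mean of at least 100 CPM the counts were 234 higher (65.2%), 125 lower and 31 opposite. Keeping genes at 0 with 1 CPM added gave 651, 1344 and 466, and requiring 20 fragments in every library gave 157 higher (20.4%), 614 lower and 57 opposite. The 20-fragment rule leaves out genes low in WT4 IgG, the library with the fewest fragments. It thus works against higher genes, and falls of list medians under it are partly built in. A 1.5-fold line gave 769, 1399 and 704, and a 4-fold line 46, 263 and 39. In 1 fraction alone, 885 to 1381 genes were higher and 1753 to 1914 lower, and no opposite count exists there. Scaling to 8 adipocyte markers, chosen after seeing the data, gave 50 higher (1.96%), 2500 lower and 181 opposite, and the IgG medians turned to -0.25 for de novo fatty acid synthesis, -0.19 for fatty acid oxidation, -0.12 for the tricarboxylic acid cycle and -0.23 for the sarcomere. The cause was not tested. Of 920 list medians under alternatives, 92 changed sign, 42 of them on the adipocyte-marker scale and 17 with 20 fragments required in every library. The 4 given above had been 2-fold or more in both fractions by column total. Those 2-fold in IgG alone turned to -0.43 for lipolysis, -0.34 for fatty acid uptake, -0.04 for glycolysis and -0.20 for heat shock on that scale, and to -0.26 for mitochondrially encoded genes with 20 fragments required. The lipolysis list holds Pnpla2 and Cidec, which are among the 8 markers, so it was partly scaled to its own members. No paired analysis was possible because each gene has only 2 within-fraction differences, which are the values given and cannot reach a threshold. The 360379 fragments of WT4 IgG limit precision most: a gene at 20 CPM rests on 7.21 of them there.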
